A study of Mus musculus with 11 samples.

Results

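The ATF4 amino acid response genes are 10 genes that act in the cell's answer to amino acid shortage and related stress: the transcription factors Atf4 and Ddit3, the regulator Trib3, the enzymes Asns, Phgdh, Psat1, Psph, Cth and Chac1, and the nutrient-signalling gene Sesn2. They were taken by gene symbol from the deposited tables, where each is a single locus, and are 10 of 46469 symbols listed. All 10 passed the filter on low values and are among the 14940 genes tested. In cells without intact Actb (KO) 6 of them rose over wild type (WT) and none fell, while in cells with 1 intact copy (Het) 3 rose and 3 fell, Atf4 itself among those that fell. Of all tested genes 47.1% were called in KO against WT (23.3% higher) and 43.8% in Het against WT (21.7% higher and 22.1% lower), so many genes outside the list differed too.

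The libraries are poly(A) RNA of cultured mouse embryonic fibroblasts, labelled as BALB/c and as taken from embryos of 10.5 days. WT cells are Actb +/+ (n = 4), Het cells Actb +/- (n = 4) and KO cells Actb -/- (n = 3), where Actb encodes the cytoplasmic β-actin. All groups were grown alike in high-glucose DMEM with 10% fetal bovine serum, penicillin and streptomycin, and lysed at 70% confluence. No treatment, stress or amino acid withdrawal is named in the labels, so the values below are those of cells grown in that medium. The amino acids left in it at lysis are not known. The labels number the replicates without naming embryos, cultures or clones, so the p-values measure the spread between these libraries, which may be technical. In such bulk RNA, fewer cells of a type and less RNA per cell cannot be told apart.

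As background, ATF4 is a basic leucine zipper (bZIP) factor whose messenger RNA is translated more when the initiation factor eIF2α is phosphorylated. The kinase GCN2 (gene Eif2ak4) does this when uncharged transfer RNAs build up, PERK (Eif2ak3) when proteins misfold in the endoplasmic reticulum, PKR (Eif2ak2) on double-stranded RNA and HRI (Eif2ak1) when heme is short. ATF4 protein then binds composite sites with C/EBP-family partners and raises genes for amino acid synthesis, amino acid import and transfer RNA charging. Because that control acts largely on translation, an Atf4 mRNA level does not give the amount or activity of the protein, which was not measured here.

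Promoter sequences were read for the members from RefSeq (GRCm38.p6), in windows from 250 bases before to 50 bases after each annotated start. Windows were found for 9 of the 10 members. The core letters of the C/EBP-ATF composite element, TGATGNAA on either strand, stand in the windows of 3 members, Asns, Chac1 and Trib3, and in 3.97% of all 32851 windows. These 3 genes are shown because each holds the letters and each rose in KO (below). Capitals mark the match, lines run 5′ to 3′ on the gene's strand, and the first pair give the 250 bases before the start (Asns at chr6:7693210-7693459, minus strand, and Chac1 at chr2:119350992-119351241, plus strand). The Trib3 line gives 30 bases around a match that begins at base 15 of the transcript (chr2:152344028-152344057, minus strand).
Asns: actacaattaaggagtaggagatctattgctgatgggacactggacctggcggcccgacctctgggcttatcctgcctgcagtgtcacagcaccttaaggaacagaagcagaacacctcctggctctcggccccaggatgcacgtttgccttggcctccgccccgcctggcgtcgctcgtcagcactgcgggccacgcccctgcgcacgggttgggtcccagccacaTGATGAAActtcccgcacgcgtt
Chac1: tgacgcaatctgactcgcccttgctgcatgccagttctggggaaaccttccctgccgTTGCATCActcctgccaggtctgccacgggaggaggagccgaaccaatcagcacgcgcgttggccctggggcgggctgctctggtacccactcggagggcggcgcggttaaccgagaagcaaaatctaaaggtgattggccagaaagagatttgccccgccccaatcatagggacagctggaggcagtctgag
Trib3: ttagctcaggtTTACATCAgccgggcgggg

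The match starts 23 bases before the RefSeq start in Asns, on the gene's own strand, and 193 bases before it in Chac1, on the opposite strand. The Asns locus used for the levels below ends at 7693182, so its start lies further from the match than the RefSeq start. In Trib3 it also lies on the opposite strand. A match of letters is a description and not a shown site of binding, and the lack of one in the other windows covers those letters in that window only.

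Levels below are FPKM (fragments per kilobase of transcript, relative to all fragments mapped), an estimate per transcript length, scaled between libraries. The libraries held 13885 to 14202 genes of at least 1 FPKM, and relative depth ran from 62.0% of WT 1 in WT 3 and 66.7% in KO 1 to 124% in WT 4. The targeted gene Actb followed the labels in all 11 libraries, with means of 1319 ± 198.6 for WT, 833.5 ± 23.9 for Het and 45.6 ± 1.27 for KO (± SD; here and below n is 4, 4 and 3). Of the 10 fibroblast markers Vim, Col1a1, Fn1, S100a4 and P4hb had means of at least 170.3 FPKM in every group, and Pdgfrb had means of 18.4, 38.6 and 68.5 in WT, Het and KO. The others were uneven or low: Col1a2 had means of 6.83, 192.4 and 11.5, Pdgfra of 0.211, 4.31 and 0.959, and Thy1 of 0.0247, 0.664 and 2.2, and Fap stayed under 1 FPKM in all 3 groups. The summed fibroblast markers ran from 1907 to 2342 FPKM in WT, 2822 to 3149 in Het and 4057 to 4682 in KO. Of 8 neuronal and glial markers 5 in WT, 7 in Het and 5 in KO had means under 1, and their sum was 12.3 to 21.1, 23.5 to 30.4 and 25.4 to 27.5 FPKM, led by Tubb3 (means of 10.9, 24.5 and 13.6) and Map2 (3.25, 0.593 and 10.6). Epithelial, endothelial and blood markers summed to at most 9.51, 0.616 and 4.62 FPKM in a library. Xist, the RNA of the silenced X chromosome, was at 43.8 to 51.2 in the Het libraries and at most 0.0583 in any WT or KO library, and this difference and the Actb genotype cannot be told apart in comparisons with Het. The Y-linked genes Ddx3y, Eif2s3y, Uty and Kdm5d were at most 0.268 FPKM in any library of the 3 groups. WT and KO libraries thus held little of either Xist or these genes, and the sex of the cells was not tested. The part of these marker differences in the results was not tested.

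**Figure D1:**
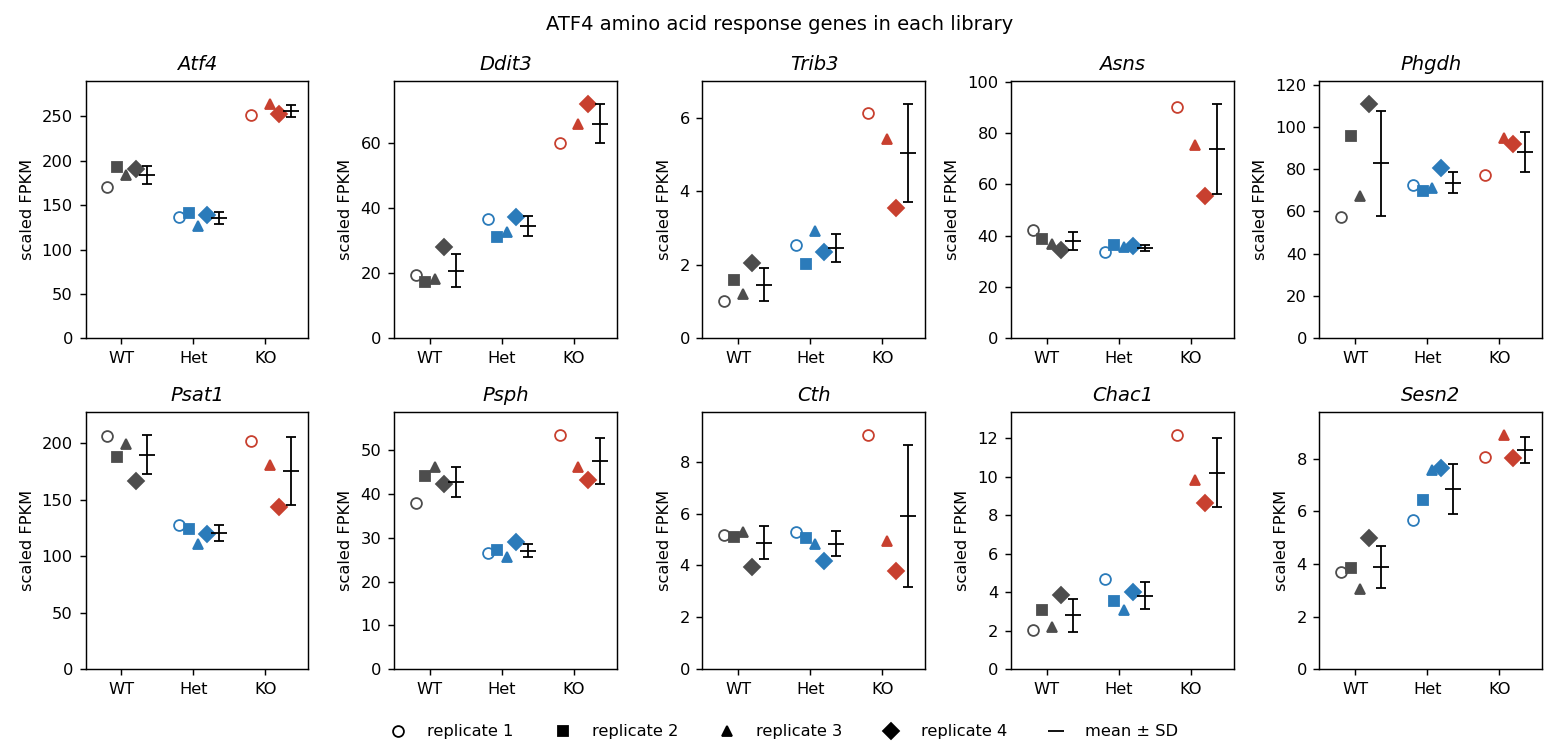
Scaled FPKM of the 10 genes (vertical axis, linear, from 0, one panel per gene) in the WT, Het and KO libraries (horizontal axis). Symbols mark the replicate number and the black bar beside each group is the mean with its SD. Atf4, Psat1 and Psph are lowest in the 4 Het libraries, whereas Ddit3 steps up from WT to Het to KO with no overlap.

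Atf4 mRNA was lowest with 1 intact Actb copy and highest with none. Atf4 (gene36955, chromosome 15, 80255184 to 80257545) measured 170.1, 193, 184 and 191 FPKM in the WT libraries, 137, 141, 126 and 139 in Het, and 251, 264 and 253 in KO. Each group is tight and none overlaps another, with coefficients of variation of 5.54%, 4.73% and 2.59%. The WT mean was 184.5 ± 10.2 (SD, n = 4), that of Het 135.5 ± 6.41 and that of KO 256 ± 6.64. On the log2(FPKM + 1) scale, on which all differences below are given, Atf4 was 0.47 higher in KO than in WT (SE 0.06, adjusted p = 8.21e-05 by limma), 0.44 lower in Het than in WT (-0.44, SE 0.06, adjusted p = 9.5e-05) and 0.91 higher in KO than in Het (SE 0.06, adjusted p = 6.25e-07).

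Ddit3 encodes CHOP, a bZIP factor that ATF4 induces and that drives later stress outputs, cell death genes among them. Ddit3 (gene26631, chromosome 10, 127290793 to 127296288) measured 19.5, 17.2, 18.4 and 28.2 FPKM in WT, 36.5, 31.0, 32.7 and 37.4 in Het, and 60.0, 65.9 and 71.8 in KO. It therefore rose in both mutant groups without overlap, and WT 4 was the highest of its group. Mean levels were 1.65 times WT in Het and 3.17 times WT in KO. The log2 differences were 0.72 for Het against WT (SE 0.14, adjusted p = 0.00141 by limma) and 1.64 for KO against WT (SE 0.15, adjusted p = 5.54e-06). In Het the Ddit3 and Atf4 mRNAs thus moved in opposite directions from WT. The Ddit3 locus overlaps the annotations of the methionyl-tRNA synthetase gene (Mars in the tables) and Mbd6. Mars fell from 62.0 FPKM in WT to 50.9 in KO. The part of reads from the overlapping genes in the Ddit3 values was not tested.

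Trib3 encodes a pseudokinase that ATF4 and CHOP induce and that holds ATF4 activity in check. Trib3 (gene5479, chromosome 2, 152337425 to 152344060) was the lowest of the members in WT, at 1.01, 1.59, 1.20 and 2.04 FPKM, against 2.55, 2.02, 2.92 and 2.34 in Het and 6.13, 5.43 and 3.55 in KO. The KO libraries lie above all others, while WT 4 overlaps Het 2. Trib3 rose by 1.29 in KO (SE 0.18, adjusted p = 0.000143 by limma) and by 0.50 in Het (SE 0.17, adjusted p = 0.0291). The Het call was lost without the filter on low values (adjusted p = 0.0706), with the replicate number as a block (adjusted p = 0.0592) and when any of WT 1, WT 3, Het 1, Het 3 or Het 4 was left out, with adjusted p between 0.0527 and 0.0814. At this level the interval that Cufflinks gave spanned up to 53.5% of the value on either side.

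Among the enzymes, asparagine synthetase (Asns), which makes asparagine from aspartate and glutamine, rose in KO over both WT and Het, which overlap each other. Asns (gene13836, chromosome 6, 7675165 to 7693182) measured 42.3, 38.6, 36.6 and 34.3 FPKM in WT and 33.5, 36.4, 35.5 and 35.8 in Het, and 90.2, 75.5 and 55.3 in KO. The WT and Het libraries overlap closely, and all KO libraries stand above them but differ by more among themselves (coefficient of variation 23.8% in KO, 8.88% in WT and 3.54% in Het). The difference was 0.92 for KO against WT (SE 0.13, adjusted p = 0.000224 by limma) and -0.10 for Het against WT (95% interval -0.37 to 0.18, adjusted p = 0.566). Without KO 1, the highest library, Asns still differed by 0.76 between KO and WT (adjusted p = 0.000712).

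The serine synthesis enzymes behaved differently from Asns. Phgdh starts the pathway from a glycolytic intermediate, Psat1 adds the amino group and Psph removes the phosphate to yield serine. None of the 3 was past the threshold in KO against WT, and the later pair fell in Het. Psat1 (gene42866, chromosome 19, 15905123 to 15925059) measured 206, 188, 199 and 167 FPKM in WT, 127, 124, 110.3 and 119.7 in Het, and 202, 181 and 143 in KO. Every Het library is below every other library. Its log2 difference was -0.65 for Het against WT (SE 0.10, adjusted p = 0.000511 by limma) and -0.12 for KO against WT (95% interval -0.37 to 0.13, adjusted p = 0.401).

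Psph (gene13183, chromosome 5, 129765558 to 129787253) measured 37.99, 44.2, 46.2 and 42.4 FPKM in WT, 26.5, 27.3, 25.6 and 28.9 in Het, and 53.4, 46.0 and 43.2 in KO. The Het libraries again sit below all others, and WT and KO overlap. Psph was 0.64 lower in Het than in WT (-0.64, SE 0.08, adjusted p = 8.95e-05 by limma), and KO and WT differed by 0.15 (95% interval -0.04 to 0.34, adjusted p = 0.177). Mean Het levels of Psat1 and of Psph were both 0.634 times the WT mean.

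Phgdh (gene7680, chromosome 3, 98313171 to 98339969) measured 57.4, 95.9, 67.2 and 110.6 FPKM in WT, 72.4, 69.8, 71.3 and 80.8 in Het, and 77.4, 94.9 and 91.9 in KO. WT libraries spread over the whole range of the mutant groups (coefficient of variation 29.9%, against 6.69% in Het and 10.6% in KO). The KO difference of 0.13 had a 95% interval of -0.29 to 0.55 and the Het difference of -0.12 one of -0.51 to 0.27. In WT the mean levels per transcript length were 189.7 for Psat1, 82.8 for Phgdh and 42.7 for Psph.

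Cth and Chac1 act on sulfur amino acids and glutathione. Cth, cystathionine gamma-lyase, which releases cysteine in transsulfuration (gene8522, chromosome 3, 157894248 to 157925081), measured 5.18, 5.11, 5.29 and 3.92 FPKM in WT, 5.29, 5.07, 4.81 and 4.17 in Het, and 9.02, 4.94 and 3.80 in KO. Only KO 1 was high, and the other KO libraries lay within or just below the range of WT. Cth was not past the threshold in any comparison, and its KO difference went from 0.17 (adjusted p = 0.53 by limma) to -0.13 (adjusted p = 0.467) without KO 1.

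Chac1 cleaves the gamma-glutamyl bond of glutathione and is a known target downstream of ATF4 and CHOP. Chac1 (gene4872, chromosome 2, 119351242 to 119354326) measured 2.02, 3.09, 2.203 and 3.87 FPKM in WT, 4.69, 3.52, 3.09 and 3.99 in Het, and 12.1, 9.83 and 8.65 in KO. The KO libraries are clear of the rest and WT and Het overlap. Chac1 rose by 1.58 in KO (SE 0.18, adjusted p = 3.59e-05 by limma), a mean level 3.65 times that of WT. The Het difference was 0.36 (95% interval -0.01 to 0.73, adjusted p = 0.103), and it passed the threshold without WT 4 (0.49, adjusted p = 0.0212).

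Sesn2 encodes sestrin 2, a leucine sensor that restrains the growth kinase complex mTORC1. Sesn2 (gene10441, chromosome 4, 132492804 to 132510456) measured 3.69, 3.85, 3.03 and 4.99 FPKM in WT, 5.67, 6.45, 7.59 and 7.65 in Het, and 8.06, 8.89 and 8.02 in KO. Both mutant groups lie above all WT libraries. It rose by 0.69 in Het (SE 0.12, adjusted p = 0.0011 by limma) and by 0.94 in KO (SE 0.13, adjusted p = 0.000171), and the difference between KO and Het was 0.26 (95% interval -0.04 to 0.55, adjusted p = 0.144).

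**Figure D2:**
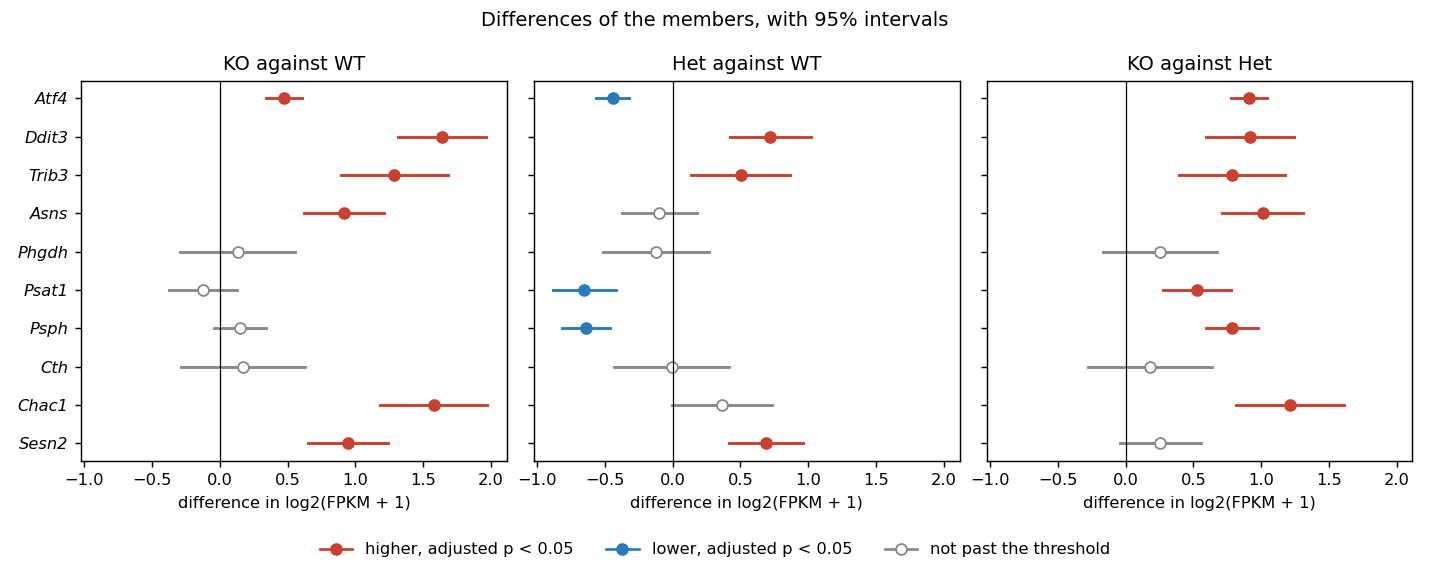
Differences in log2(FPKM + 1) of the 10 genes (horizontal axis) in each comparison, with 95% intervals from the limma fit. Filled red and blue points passed an adjusted p of 0.05 (higher and lower), and open grey points did not. In KO against WT 6 genes are red and none blue, while Het against WT holds 3 of each.

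Counted over the members, KO against WT gave 6 higher and 0 lower of 10, where 23.3% of all tested genes were higher and 23.8% lower, so 47.1% were called. The 6 were Atf4, Ddit3, Trib3, Asns, Chac1 and Sesn2, the 6 whose KO libraries all lay above all WT libraries (22.8% of all genes did, 23.6% lay wholly below and 46.4% did either), and at an unadjusted p of 0.05 limma gave the same counts of 6 and 0. The median difference of the members was 0.69, against 0.01 for all tested genes. Without scaling between libraries 37.1% of called genes in this comparison were higher, against 49.4% with it, and the members' counts of 6 and 0 were the same.

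Het against WT gave 3 higher (Ddit3, Sesn2 and Trib3, the last lost under the settings given above) and 3 lower (Atf4, Psat1 and Psph), beside 21.7% higher and 22.1% lower among all genes, or 43.8% called. The members' median was -0.05 and that of all genes 0.01. Of the 3 higher genes Ddit3 and Sesn2 did not overlap WT, and of the 3 lower genes all were clear of it (19.4% and 20.1% of all genes lay wholly above and below, 39.5% in all). In KO against Het, 7 of 10 members were higher and 0 lower, at an unadjusted p of 0.05 also 7 and 0, beside 22.0% higher and 22.2% lower among all genes (44.2% called). Those 7 were Atf4, Ddit3, Trib3, Asns, Psat1, Psph and Chac1, led by Chac1 (1.22) and Asns (1.01), and the median was 0.79 against 0.01. Those 7 and Sesn2 lay wholly above Het, as 27.2% of all genes did, while 26.7% lay wholly below and 54.0% did either. These comparisons share libraries, so their counts are not independent of each other.

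**Figure D3:**
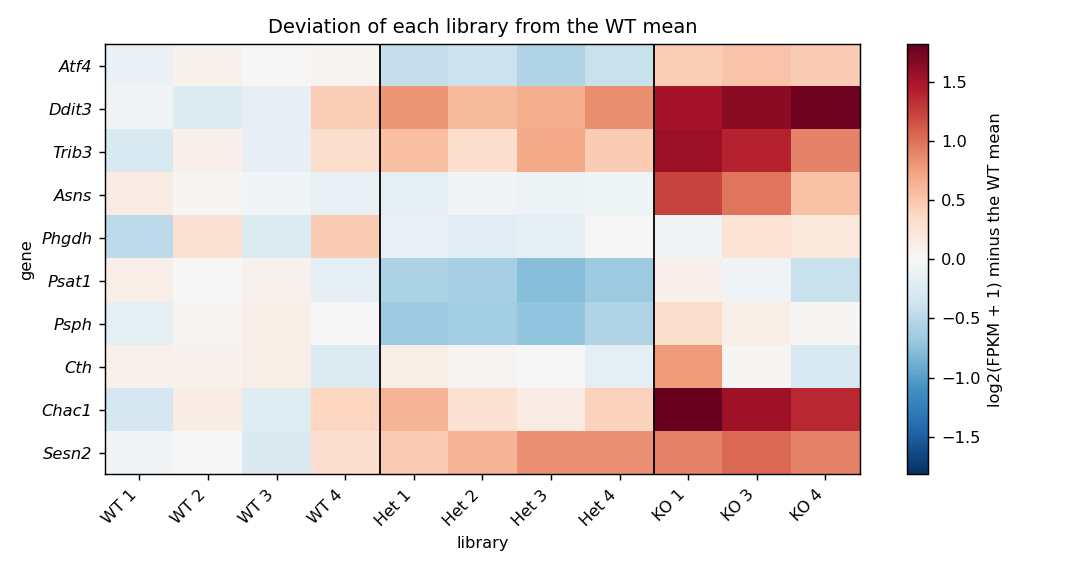
Deviation of log2(FPKM + 1) from the gene's WT mean (colour) for the 10 genes (rows) in the 11 libraries (columns, black lines between groups). Red is above and blue below the WT mean. Atf4, Psat1 and Psph are blue in all Het libraries, and Cth is highest in KO 1.

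The order of the KO libraries was not the same for all members. KO 1 was the highest of the 3 for 6 members, namely Trib3, Asns, Psat1, Psph, Cth and Chac1, and KO 4 the lowest for 7, those 6 and Sesn2. Of all tested genes KO 1 was the highest for 41.3% and KO 4 the lowest for 39.2%. For Atf4, Ddit3 and Phgdh KO 1 was instead the lowest, as for 35.0% of all tested genes. KO 1 had 66.7% of the depth of WT 1, and KO 4 had 101%. In WT, WT 4 was the highest for Ddit3, Trib3, Phgdh, Chac1 and Sesn2 and the lowest for Asns, Psat1 and Cth. Of all tested genes WT 4 was the highest for 32.6% and the lowest for 38.8%. The part of depth in these patterns was not tested.

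The wider pathway was read from 7 companion lists, whose counts stand beside 23.3% higher and 23.8% lower among all tested genes in KO against WT, 21.7% and 22.1% in Het against WT, and 22.0% and 22.2% in KO against Het. Each list's counts and median describe it and are not a test of the list. Of the eIF2α kinases and their regulators, 3 of 10 tested rose and 3 fell in KO against WT (median -0.005). Of the kinase genes Eif2ak3 was not past the threshold (6.24 FPKM in WT, 6.32 in KO) and the other 3 fell. Eif2ak2 fell from 37.5 ± 6.26 to 22.2 ± 0.656 FPKM (± SD; -0.71), Eif2ak4, the amino acid sensor GCN2, from 8.29 to 5.57 (-0.50) and Eif2ak1 from 35.2 to 27.2 (-0.36). Impact, an inhibitor of GCN2, rose from 16.4 ± 1.30 FPKM in WT to 36.8 ± 1.54 in Het and 25.4 ± 1.29 in KO (1.12 and 0.60), and Eif2s1, which encodes eIF2α, rose by 0.33 in KO. Gcn1l1, a GCN2 activator, was called higher in KO (0.77, adjusted p = 0.0352 by limma), but not when any of WT 1, WT 3, KO 3 or KO 4 was left out (adjusted p 0.0699 to 0.124). The Gcn1l1 call was also lost without the filter, without scaling and with only the groups compared in the fit (adjusted p 0.0691 to 0.082 by limma).

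Among bZIP partners and related factors 4 of 7 tested rose and 1 fell in KO (median 0.41). Atf5, a factor under the same kind of translational control, went from 5.07 ± 0.686 FPKM in WT to 6.91 ± 0.940 in Het and 16.2 ± 0.869 in KO (1.51 for KO against WT). Nupr1, a stress-induced nuclear protein, went from 38.4 to 41.6 and 105 FPKM (1.44). Atf3, often induced with Atf4 in acute stress, went the other way, from 6.35 ± 0.768 to 3.90 ± 0.391 in Het and 2.85 ± 0.401 in KO (-0.93, adjusted p = 4.15e-05 by limma). Cebpd was called higher in KO at a low level (2.02 FPKM, 0.82), a call lost without any one of WT 1, WT 2, WT 3, KO 3 or KO 4 (adjusted p 0.0566 to 0.133). That call was also lost without the filter and with only the groups compared in the fit (adjusted p 0.0697 and 0.0591 by limma). Cebpd was under 1 FPKM in WT 1, WT 2 and WT 3 (0.431, 0.401 and 0.462) and passed the filter on low values through the mutant libraries. Its difference therefore supports nothing, and it is among the 4 counted as higher and enters the median.

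Other amino acid and one-carbon enzymes had 7 of 13 tested higher and 1 lower in KO (median 0.34), and 4 higher and 4 lower in Het. Aldh1l2, a mitochondrial folate enzyme, rose from 3.45 ± 0.331 FPKM in WT to 7.88 ± 0.782 in Het and 8.59 ± 2.26 in KO (0.995 and 1.08). The proline synthesis gene Pycr1 rose by 0.77 and 1.03, and Gpt2, an alanine transaminase, by 0.41 and 0.70. Shmt1, the cytosolic serine hydroxymethyltransferase, fell by 0.25 in KO, a call lost without WT 1, KO 1 or KO 4 (adjusted p 0.0577 to 0.0909 by limma). Mthfd2, the mitochondrial folate dehydrogenase, was chosen after its values were seen: it measured 52.1 ± 2.98 in WT, 28.6 ± 0.670 in Het and 57.8 ± 7.75 in KO, a fall of 0.84 in Het (adjusted p = 9.21e-06 by limma) beside those of Psat1 and Psph.

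Amino acid transporter genes had 7 of 11 tested higher and 1 lower in KO against WT (median 0.20), but 2 higher and 7 lower in Het against WT (median -0.37), and 8 higher and 1 lower in KO against Het (median 0.69). Slc6a9, a glycine transporter, went from 1.18 ± 0.302 FPKM in WT to 3.11 ± 0.200 in Het and 6.71 ± 1.37 in KO (1.82 for KO against WT). Slc43a1, a carrier of large neutral amino acids, measured 0.273, 0.253 and 2.57 FPKM. It passed the filter on low values through the KO libraries alone (at most 0.414 in any other), so its difference supports nothing, and without it the counts are 6 of 10 higher in KO against WT and 7 of 10 in KO against Het, with 1 lower in each (medians 0.20 and 0.63). Slc7a3, a cationic amino acid carrier, went from 0.972 to 2.004 and 2.18 (0.70). Slc6a9 in WT 1 and WT 3 (0.916 and 0.981) and Slc7a3 in WT 3 and WT 4 (0.547 and 0.904) were under 1 FPKM. The WT libraries alone would therefore not have passed either gene through the filter. Slc1a5, a glutamine carrier, was the one called lower in KO (-0.33, adjusted p = 0.0445 by limma), and that call was lost when any of WT 2, WT 4, Het 2, Het 3 or a KO library was left out (adjusted p 0.0605 to 0.128). It was also lost without the filter and with only the groups compared in the fit (adjusted p 0.0849 and 0.0707 by limma).

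Cytosolic aminoacyl-tRNA synthetases, which charge transfer RNAs, were mixed: 6 of 20 rose and 9 fell in KO (median -0.13), and 2 rose and 9 fell in Het (median -0.145). Wars went from 26.3 ± 2.54 FPKM in WT to 22.1 ± 0.668 in Het and 39.7 ± 2.22 in KO (0.58 for KO against WT), Lars rose by 0.44 and Aars by 0.36. The lysyl-tRNA synthetase gene Kars fell from 165 ± 7.42 to 116 ± 5.87 in KO (-0.51), and the phenylalanyl pair Farsa and Farsb fell by 0.65 and 0.51. Farsb is a sum over 2 loci.

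Of the genes listed as other possible outputs of ATF4 and CHOP 5 of 12 tested rose and 6 fell in KO (median 0.09). Single genes of this list may answer mainly to other regulators, and whether ATF4 or CHOP drives any of them in these cells was not tested. Vldlr, a lipoprotein receptor, rose from 0.433 ± 0.0167 FPKM in WT to 1.48 ± 0.271 in Het and 12.4 ± 1.30 in KO (0.78 and 3.22). Trib2, a relative of Trib3, rose by 0.80 and 1.495, and Ddit4, an inhibitor of mTORC1, went from 10.7 to 11.8 and 28.1 FPKM (1.32 for KO against WT). Vldlr and Trib2 were at most 0.457 and 0.231 FPKM in any WT library and passed the filter on low values through the mutant libraries alone. Their differences therefore support nothing. Both are among the 5 counted as higher and both enter the median of 0.09, so neither that count nor that median describes the list without them. Lower in KO were Ero1l, an oxidase of the endoplasmic reticulum that CHOP is known to induce (-0.77), the sestrin Sesn3 (-0.68) and the death receptor gene Tnfrsf10b (-0.57). Fgf21, Gdf15 and Stc2 were too low to test, with means of at most 0.925 FPKM in any group.

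The chaperone arm of the unfolded protein response, which runs largely through ATF6 and XBP1, had 2 of 20 higher and 7 lower in KO (median -0.10) and 2 higher and 10 lower in Het (median -0.21). Single genes of this list may also answer to ATF4. Dnajc3, a chaperone that inhibits eIF2α kinases, fell from 33.4 ± 4.28 FPKM in WT to 22.4 ± 1.46 in Het and 14.7 ± 0.894 in KO (-1.12 for KO against WT). The chaperone gene Hyou1 and Ern1, which encodes the sensor IRE1, fell by 0.74 each. Herpud1, a degradation factor, rose by 0.62 and Xbp1 by 0.31 in KO. No test compared this list with the members as lists.

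**Figure D4:**
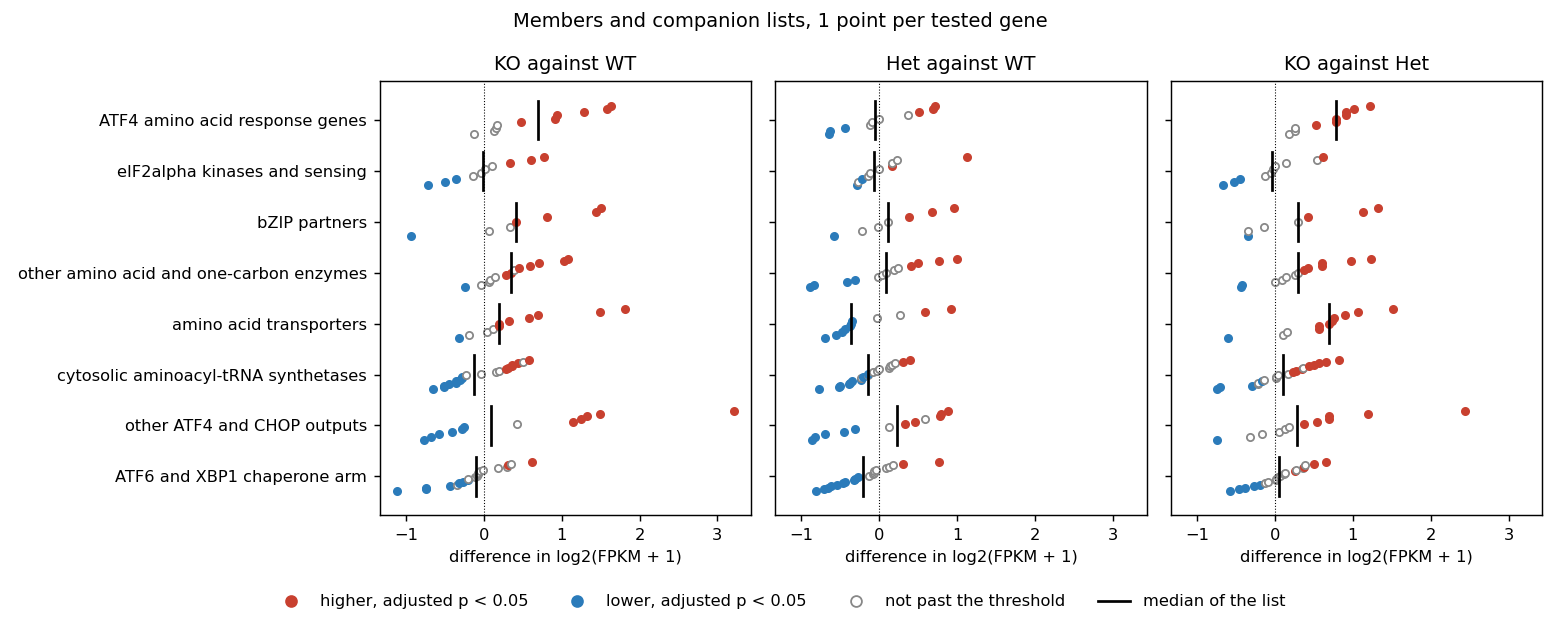
Differences in log2(FPKM + 1) (horizontal axis) for the 10 genes (top row) and the tested genes of the 7 companion lists, in each comparison. Each point is a gene, red or blue where it passed an adjusted p of 0.05 (higher or lower) and open grey otherwise, and the black bar is the list's median. The members' median is 0.69 in KO against WT and -0.05 in Het against WT, and the transporter median moves from 0.20 to -0.37.

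The genes most like 3 of the members were sought among 8464 others with a mean of at least 5 FPKM, by the mean absolute difference between both genes' centred log2(FPKM + 1) over the 11 libraries. Nearest to Atf4 were Tpm1, a tropomyosin (0.048; 770.0, 576 and 1140 FPKM in WT, Het and KO), Csf1, a macrophage growth factor (0.061), and Tnc, the matrix protein tenascin C (0.066). Nearest to Asns were Meis1 (0.099; 4.79, 4.82 and 11.7 FPKM), Schip1 (0.109) and Esyt2 (0.110). Near Phgdh were Dhx38 (0.063) and Wdr6 (0.068). None of the genes named here is in a companion list.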

How the data were processed

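The authors deposited 1 table of gene FPKM per library with the ends of each estimate's interval, for 48892 loci, made with TopHat2 2.1.0 and Cufflinks 2.2.1 on GRCm38.p4, per the submitters' processing notes. Cuffdiff is named there without a version. The tables hold no counts, so depth was read from those intervals: relative depth is the median of FPKM over the squared half-width, over 7682 genes between 5 and 100 FPKM. Symbols turned into dates in the WT 1 table (31) were restored from the other tables, and FPKM of loci sharing a symbol was summed. Median-of-ratios factors from 13981 genes, between 0.941 and 1.04, brought the libraries to a common scale. Genes with at least 1 FPKM in at least 3 libraries (14940) were fitted as log2(FPKM + 1) in limma 3.58.1 (R 4.3.3). The model had a mean for each genotype and a trended variance estimated from all 11 libraries together. Benjamini-Hochberg adjustment covered all 14940 genes, and an adjusted p under 0.05 counts as called. Plots and tables used Python 3.11.15.

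The members and lists were chosen with earlier results of these data known. All members are named. From each companion list the rule names up to 3 genes with the largest rise and up to 3 with the largest fall among those called in KO against WT, and for Atf4, Asns and Phgdh the 3 most like genes, leaving out predicted and clone names. Not every gene that the rule takes is described for every comparison, and 1 of the most like genes is not reported here. The fit was also tried on simulated data for KO against WT with 14940 genes. It called 73.1% of the 67 genes given a 1.5-fold change, 89.6% of the 67 given 2-fold and 98.5% of the 66 given 4-fold. The changed genes were drawn only from those above about 5 FPKM in WT. These shares therefore do not cover Trib3, Chac1, Sesn2 and Cth, with WT means of 1.46, 2.795, 3.89 and 4.875 FPKM. Far fewer genes were changed than the 47.1% called in KO against WT. The alternatives tried were a pseudocount of 0.1, no filter, no scaling, no trend, only the groups compared, only loci on primary chromosomes, the replicate number as a block, and leaving out each of 11 libraries. Positions are on GRCm38, counted from 1.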

Additional observations from a re-analysis of the deposited data

Results flagged for a closer look

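In WT the Cth level of WT 4, 3.92 FPKM, stood apart below the other WT libraries, which lay between 5.11 and 5.29. The gap was 0.867 of the group's whole range, above Dixon's 95% critical value for 4 libraries. It was the only such case among 22 gene and group pairs checked in WT and Het for the 10 members and Actb, and chance alone gives about 1 in 20. The KO group, with 3 libraries, was not checked in this way.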

How the results depend on the processing

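Over the 18 alternatives for each of the 30 member differences, 522 values kept their direction and side of the threshold. In KO against WT 6 members were higher and 0 lower in every alternative run. In Het against WT between 2 and 4 were higher when 1 library was left out, and 3 were lower in every alternative. In KO against Het 7 or 8 were higher, the eighth being Phgdh when only the groups compared were fitted (0.25, adjusted p = 0.0337 by limma). The 9 values that changed sign belong to differences that were not past the threshold. With 1 library left out, Phgdh ranged from -0.027 (without WT 1) to 0.281 in KO against WT and from -0.278 to 0.029 (without WT 4) in Het against WT, and Psat1 from -0.231 to 0.015 (without KO 4) in KO against WT. Cth ranged from -0.13 (without KO 1) to 0.40 in KO against WT and from -0.124 (without KO 1) to 0.408 in KO against Het. In Het against WT Cth ranged from -0.093 to 0.05 (without Het 4), being 0.02, 0.012 and 0.029 without WT 1, WT 2 and WT 3. Trib3 in Het also missed the threshold without the filter on low values (adjusted p = 0.0706).

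Deviations from the group means correlated over 0.1 in 5 of 10 same-numbered pairs (-0.101 to 0.353). The rule set here took libraries as paired only if every such pair passed 0.1, so it cannot show a batch shared by only some numbers. The labels name no shared source either, and the libraries were treated as sharing only a number. The 4 highest of all 40 correlations were nevertheless same-numbered (numbers 1 and 4), a hint from the data, and a library correlated best with its own number in 9 of 20 cases. With the replicate block the members' counts were 6 and 0, 2 and 3, and 7 and 0 in KO against WT, Het against WT and KO against Het, Trib3 in Het being the call lost (adjusted p = 0.0592 by limma), and all genes called were 7293, 6990 and 6879. Low levels limit Trib3, Chac1, Cth and Sesn2, whose Cufflinks intervals reached 53.5%, 45.9%, 28.8% and 29.3% of the value on either side.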
